A study of Mus musculus with 10 samples.

Results

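The genes described here are the D-type cyclins Ccnd1, Ccnd2 and Ccnd3, the kinases they activate, Cdk4 and Cdk6, the CDK inhibitors Cdkn1a, Cdkn1b, Cdkn2c and Cdkn2d, and the retinoblastoma gene Rb1. They were chosen by name, as the core of the machinery that takes a cell from G1 into S phase. Of the 10 genes, 9 had an array feature annotated to them alone among the 34760 features. Cdkn1a (p21) shared its feature with another gene and has no value here. For Cdkn1b, which had 2 features, the one with the higher mean over the arrays was used. Expression was measured in bone marrow derived macrophages (BMDMs) from male C57BL mice, 5 arrays of wild type (WT) cells and 5 of cells from mice that lack the small GTPase Rac2 (Rac2-/-). Marrow of both genotypes was grown in macrophage colony-stimulating factor (MCSF), 50 ng/ml for 7 days, in medium with 20% serum at 16% oxygen, which the labels call normoxia, and per the labels at least 80% of the cells carried Mac1, a myeloid surface marker. The deletion was present in the whole animal, and the related gene Rac1 was not targeted. No source used here gave the age of the mice. Whether every array is its own mouse is not stated sample by sample, and p-values refer to the spread among arrays, which may be technical in part.

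MCSF drives macrophage precursors to divide as well as to mature, and D-type cyclins are among the genes that such growth factors induce in G1. A D-type cyclin bound to CDK4 or CDK6 phosphorylates the retinoblastoma protein pRB, which releases E2F transcription factors and so the genes of DNA replication. The INK4 proteins, among them p18 (Cdkn2c) and p19 (Cdkn2d), bind CDK4 and CDK6 and keep cyclin D away. The Cip/Kip proteins p21 (Cdkn1a) and p27 (Cdkn1b) bind cyclin-CDK complexes and inhibit CDK2 most strongly. Much of this control acts on protein stability and phosphorylation, which an mRNA measurement does not see.

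All values are log2 expression values, so that a difference of 1 is a 2-fold change, and differences are given as WT minus Rac2-/-. A gene was called changed where limma's adjusted p, over all features tested, was under 0.05. At this threshold 514 features changed, or 1.9% of those tested, with 1.11% higher in WT and 0.795% higher in Rac2-/-. Rac2 itself averaged 12.10 ± 0.27 in WT and 7.10 ± 0.29 in Rac2-/- BMDMs (SD, n = 5 each). The arrays fell into sets that the labels do not name. Arrays 1 and 2 of both genotypes resembled each other (r of 0.974 to 0.996 within a set, across features), and less so arrays 3 to 5 (r of 0.934 to 0.955 between the sets). Rac2-/- array 5 also stood apart: its median over 33 genes of S phase and mitosis was 9.23, against 6.80 to 7.31 in the other 9 arrays. Where a call changed with the replicate numbers as a block, with a term for the sets or without that array, such a value is given beside the result. The labels do not state that arrays of the same number are pairs.

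Ccnd2 was the one member called changed. Its mRNA, that of cyclin D2, was lower in every Rac2-/- array than in any WT array, and that of cyclin D3 showed no detectable difference. Ccnd1 and Cdk6 had lower means in Rac2-/- cells but missed the threshold. Rb1, Cdkn1b and Cdkn2c lay on the opposite side, with higher means in Rac2-/- cells that also missed it. With 1 of 9 members called against a background of 1.9%, the count rests on a single gene. At an unadjusted p under 0.05 there were 4 of 9 members and 10.4% of all features.

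**Figure D1:**
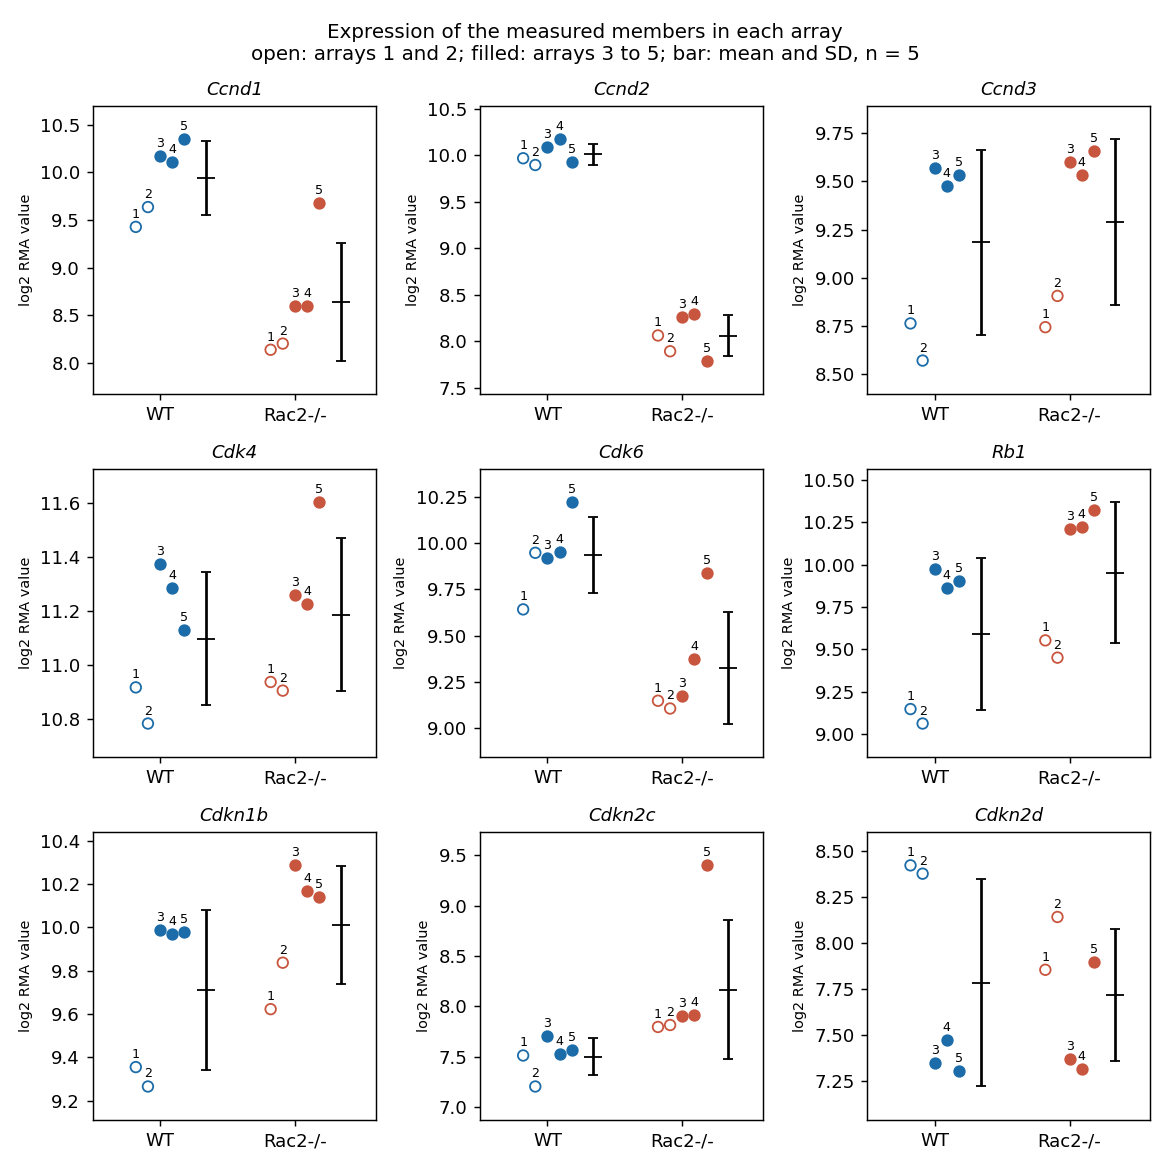
Log2 expression of the 9 measured genes in each array (y axis), by genotype (x axis), with replicate numbers beside the points. Open points are arrays 1 and 2, filled points arrays 3 to 5, and bars give the mean and SD of 5 arrays. The Ccnd2 values of the genotypes are separated by 1.61, and Rac2-/- array 5 is the highest of its group for Ccnd1, Ccnd3, Cdk4, Cdk6, Cdkn2c and Rb1.

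Cyclin D2, the product of Ccnd2, is the D-type cyclin best known for induction by mitogens in blood cells. In WT BMDMs its values were 9.97, 9.89, 10.09, 10.17 and 9.92 in arrays 1 to 5. In Rac2-/- BMDMs they were 8.06, 7.89, 8.26, 8.29 and 7.79. The groups did not overlap, and the lowest WT array lay 1.61 above the highest Rac2-/- array. The difference was 1.95 (SE 0.11, 95% interval 1.70 to 2.20), a 3.86-fold higher level in WT with an adjusted p of 3.27e-05 in limma, the 6th smallest p of all features. It was 1.95 within arrays 1 and 2 and 1.95 within arrays 3 to 5, and Ccnd2 was called in all 10 fits that left out a single array.

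Cyclin D1, encoded by Ccnd1, is the classical target of growth factor signaling through the ERK pathway. Its WT values were 9.43, 9.64, 10.17, 10.10 and 10.34. Its Rac2-/- values were 8.14, 8.21, 8.60, 8.59 and 9.68. The first 4 Rac2-/- arrays lay below every WT array, and array 5 lay between the WT arrays, so that the groups overlapped. The difference was 1.29 (SE 0.29, 95% interval 0.64 to 1.94), or 2.45-fold, with an adjusted p of 0.0606. It was of like size in both sets, 1.36 in arrays 1 and 2 and 1.25 in arrays 3 to 5. Without Rac2-/- array 5, where 1.76% of features were called, the difference was 1.55 with an adjusted p of 0.00673. With the replicate numbers as a block, where 6.35% of features were called, the adjusted p was 0.00592, and with a term for the sets, where 9.34% were called, it was 0.00289.

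Ccnd3 encodes cyclin D3, which many differentiating cells express. In arrays 1 to 5 it measured 8.76, 8.57, 9.57, 9.48 and 9.54 in WT, and 8.74, 8.91, 9.60, 9.53 and 9.66 in Rac2-/- BMDMs. Both genotypes were lower in arrays 1 and 2 than in arrays 3 to 5, by a mean of 0.86 in WT and 0.77 in Rac2-/-. The genotypes differed by -0.11 (SE 0.26, adjusted p = 0.999 in limma), with a 95% interval from -0.69 to 0.47. That interval holds neither the difference of Ccnd2 nor that of Ccnd1.

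Of the kinases, Cdk6 had a higher mean in WT cells, as Ccnd1 and Ccnd2 did, and Cdk4 showed no detectable difference. CDK6 is the partner of D-type cyclins most often tied to blood cells, and CDK4 is the more widely expressed one. The Cdk6 values were 9.64, 9.95, 9.92, 9.95 and 10.22 in WT and 9.15, 9.11, 9.18, 9.37 and 9.84 in Rac2-/-. As for Ccnd1, the first 4 Rac2-/- arrays lay below all WT arrays and array 5 did not. The difference was 0.61 (SE 0.16, 95% interval 0.26 to 0.95), or 1.52-fold, with an adjusted p of 0.0952. Without Rac2-/- array 5 it was 0.74 with an adjusted p of 0.0168, and the block gave 0.012. Cdk4 measured 10.92, 10.78, 11.38, 11.29 and 11.13 in WT and 10.94, 10.91, 11.26, 11.23 and 11.60 in Rac2-/-. Its difference was -0.09 (SE 0.16, adjusted p = 0.999), with a 95% interval from -0.44 to 0.27, and the highest of its 10 values was that of Rac2-/- array 5.

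The promoters of these kinases are printed because the difference between these close homologs within an array separated the genotypes, as given further on. RefSeq start sites on GRCm38.p6 place the Cdk4 window at chr10:127063285-127063534 and the Cdk6 window at chr5:3343643-3343892, both on the plus strand, each covering the 250 bases upstream of the start. Capitals mark the E-box CACGTG, which Myc and its partner Max bind, and the GC box GGGCGG or its complement CCGCCC, which Sp1 binds.
Cdk4: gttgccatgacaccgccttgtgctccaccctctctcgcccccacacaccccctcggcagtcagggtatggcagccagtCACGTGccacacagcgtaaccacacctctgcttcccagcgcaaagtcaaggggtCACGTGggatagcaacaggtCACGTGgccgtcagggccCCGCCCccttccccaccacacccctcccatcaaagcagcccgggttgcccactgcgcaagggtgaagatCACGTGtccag
Cdk6: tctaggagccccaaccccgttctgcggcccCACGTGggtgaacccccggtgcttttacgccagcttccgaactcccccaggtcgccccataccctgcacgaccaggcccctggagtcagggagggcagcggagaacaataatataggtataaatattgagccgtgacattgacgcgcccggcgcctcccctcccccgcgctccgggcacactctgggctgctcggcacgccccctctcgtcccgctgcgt
The Cdk4 window held 4 E-boxes, whose first bases lay 172, 118, 98 and 11 bases before the start, and 1 GC box. The Cdk6 window held 1 E-box, 220 bases before the start, and no GC box. An E-box was present in 6.02% of 32851 mouse promoter windows of the same length, and a GC box in 32.7%, counting both strands. No match overlapped another. Ccnd1, Ccnd2 and Rb1 had no promoter entry and were not searched. The other 7 members had an entry. In none of their windows was there a match to the E2F motifs TTTGGCGC (0.417% of all windows) and TTTCCCGC (0.895%), to the AP-1 motif TGANTCA (6.75%) or to the CRE TGACGTCA (1.55%). Only these exact forms were searched, so the lack of a match is not read as a lack of sites. A match describes the letters in the window and says nothing of binding.

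Rb1, whose product pRB is the main substrate of cyclin D kinases, was higher on average in Rac2-/- BMDMs. Its values were 9.15, 9.06, 9.97, 9.86 and 9.90 in WT and 9.55, 9.45, 10.21, 10.22 and 10.32 in Rac2-/-. Arrays 1 and 2 of both genotypes were lower than arrays 3 to 5, and within each set every Rac2-/- array exceeded every WT array. The difference was -0.36 (SE 0.25, adjusted p = 0.806 in limma). In each of the 5 pairs of arrays with the same number, the Rac2-/- array was the higher, by 0.24 to 0.42. The adjusted p was 0.0196 with the block and 0.00334 with a term for the sets.

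Cdkn1b encodes p27, which accumulates in cells that leave the cycle. It measured 9.35, 9.26, 9.99, 9.97 and 9.98 in WT and 9.62, 9.84, 10.29, 10.17 and 10.14 in Rac2-/-. As for Rb1, the Rac2-/- array was the higher in all 5 pairs, and the sets differed by more than the genotypes. The difference was -0.30 (SE 0.19, adjusted p = 0.762). The adjusted p was 0.0723 with the block and 0.0223 with a term for the sets. The second feature of Cdkn1b was also higher in Rac2-/-, by a difference of -0.44 (adjusted p = 0.804, and 0.0189 with the block). Its levels moved the other way between the sets, with arrays 3 to 5 lower than arrays 1 and 2 by a mean of 0.99 in WT, so that the features of this gene disagree on the sets and not on the sign of the genotype difference.

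Of the INK4 inhibitors, Cdkn2c had a higher mean in Rac2-/- cells and Cdkn2d showed no detectable difference. Cdkn2c, which encodes p18, measured 7.51, 7.20, 7.70, 7.52 and 7.57 in WT and 7.80, 7.81, 7.90, 7.92 and 9.40 in Rac2-/-. All 5 Rac2-/- arrays lay above all 5 WT arrays, although the gap between the groups was 0.09. Over all features tested, 4.52% had groups that did not overlap, and of the 9 members Cdkn2c and Ccnd2 did. The difference was -0.66 (SE 0.29, 1.58-fold higher in Rac2-/-), with an adjusted p of 0.451. Without Rac2-/- array 5 it was -0.36 (adjusted p = 0.191). Cdkn2d, which encodes p19, measured 8.42, 8.38, 7.35, 7.48 and 7.31 in WT and 7.85, 8.14, 7.37, 7.32 and 7.90 in Rac2-/-. Its difference was 0.07 (SE 0.27, adjusted p = 0.999), with a 95% interval from -0.53 to 0.67 and opposite signs in the sets, 0.40 in arrays 1 and 2 and -0.15 in arrays 3 to 5.

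**Figure D2:**
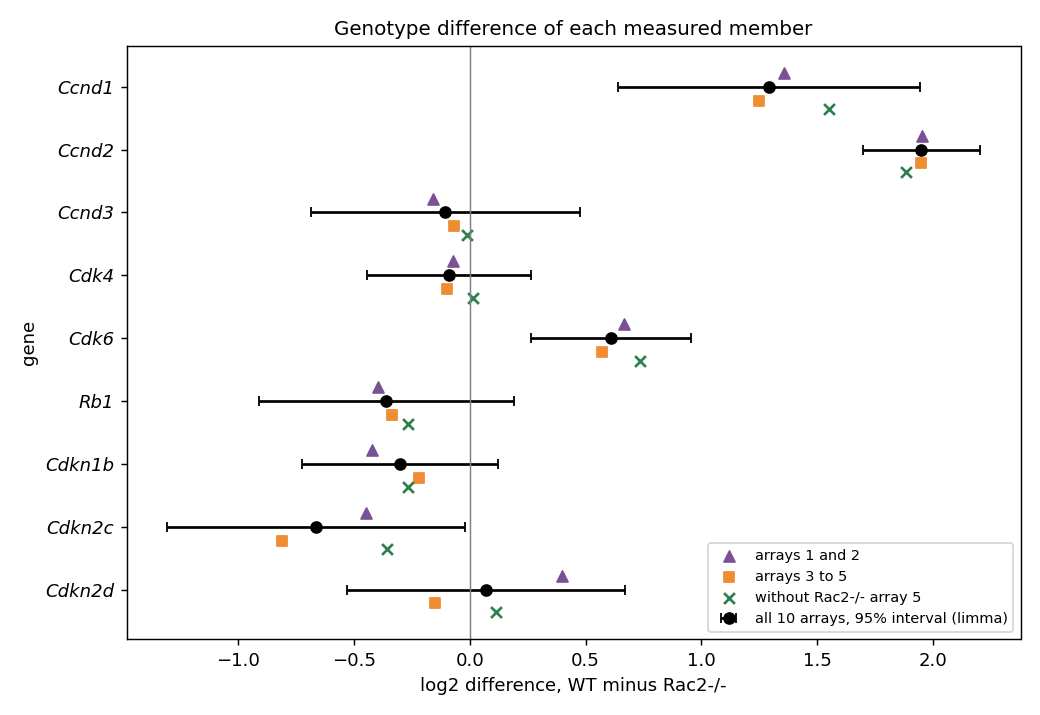
Log2 difference between the genotypes (x axis, WT minus Rac2-/-) of each measured gene (y axis). Black points and bars are the difference over all 10 arrays with its 95% interval in limma, triangles the difference in arrays 1 and 2, squares that in arrays 3 to 5 and crosses that without Rac2-/- array 5. Ccnd2, Ccnd1 and Cdk6 lie to the right of 0 in every setting, and Cdkn2c, Rb1 and Cdkn1b to the left.

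The number of members called thus depended on how the array sets and Rac2-/- array 5 entered the fit. With the replicate block 4 of 9 were called against 6.35% of all features, Ccnd1, Ccnd2 and Cdk6 higher in WT and Rb1 higher in Rac2-/-. With a term for the sets, where 9.34% of features were called, Cdkn1b joined them to make 5 of 9. With that term and without Rac2-/- array 5, an alternative chosen after the data were seen, 6 of 9 were called against 9.42% of all features, 3 in each direction, and Cdkn2c joined with a difference of -0.37 (adjusted p = 0.0187). Ccnd3, Cdk4 and Cdkn2d were called in none of these fits. Whether the genotype difference itself changed between the sets was tested as an interaction. No member and 0% of features passed in limma, while 1560 features and 0 members had an unadjusted p under 0.05.

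Comparing members of a class within each array removes whatever an array shares between both genes. The level of such a difference depends on the probes, and only its change between genotypes is read. Of 6 pairs named, 5 could be tested, with exact two-sided permutation tests over the arrays whose smallest possible p is 0.00794. These pairs were chosen with earlier results of these data known. Ccnd2 minus Ccnd3 was 0.82 ± 0.42 in WT and -1.23 ± 0.44 in Rac2-/- (SD, n = 5; exact p = 0.00794, adjusted over the pairs 0.0132). Ccnd1 minus Ccnd3 was 0.75 ± 0.19 in WT and -0.64 ± 0.41 in Rac2-/-, and Cdk6 minus Cdk4 was -1.16 ± 0.27 and -1.86 ± 0.13, with the same exact p in both cases. In these 3 pairs the groups did not overlap, Rac2-/- array 5 included. Each of these pairs sets a member with a lower mean in Rac2-/- against a homolog without a detectable difference. The tests thus restate the member values within arrays and are not separate support for them.

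The change of Ccnd2 was not shown to exceed that of Ccnd1. Ccnd2 minus Ccnd1 was 0.07 ± 0.36 in WT and -0.59 ± 0.73 in Rac2-/-, a change of 0.66 (exact p = 0.0714, adjusted over the pairs 0.0893). Without Rac2-/- array 5 the change was 0.33 (exact p = 0.135, adjusted 0.169). It was 0.78 without WT array 5 and 0.78 without Rac2-/- array 1, and passed in both (exact tests, adjusted p = 0.0298 and 0.0496). Its lowest value, -1.89, was that of Rac2-/- array 5, where Ccnd1 was high and Ccnd2 at its lowest. Cdkn2c minus Cdkn2d changed by -0.73 (exact p = 0.159), with overlapping groups. All 5 same-numbered pairs of arrays had the same sign for each of the 5 gene pairs.

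**Figure D3:**
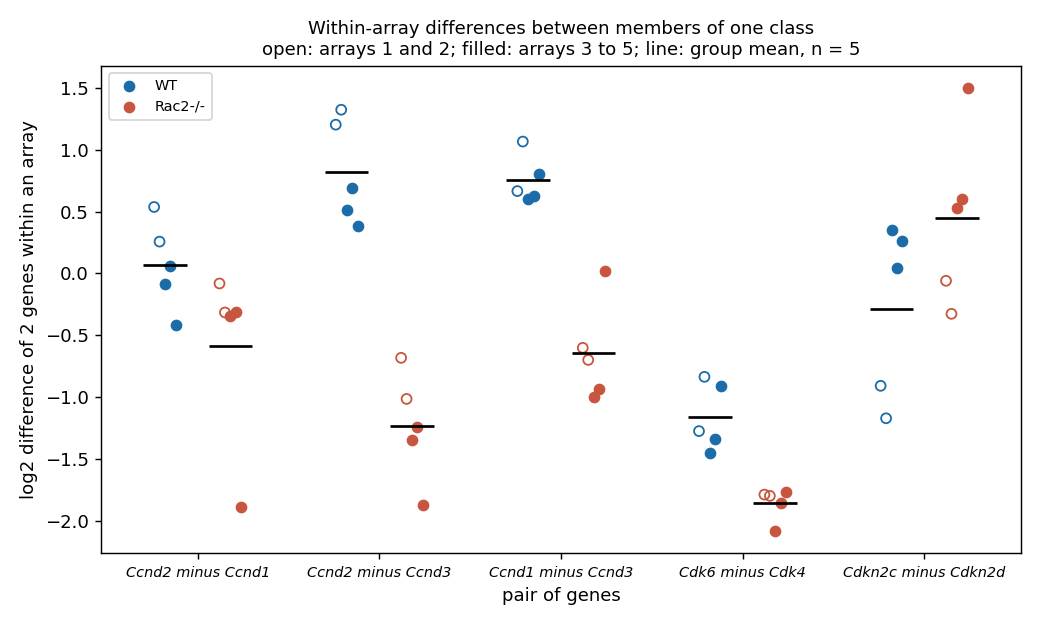
Difference of 2 genes within an array (y axis, log2) for each of the 5 gene pairs (x axis), in WT (blue) and Rac2-/- (red) arrays, with the group mean of 5 arrays as a line. Open points are arrays 1 and 2 and filled points arrays 3 to 5. The genotypes are separated for Ccnd2 minus Ccnd3, Ccnd1 minus Ccnd3 and Cdk6 minus Cdk4, and overlap for the other two.

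Rac2-/- array 5 differed from arrays 3 and 4 of its group by more in some members than in others. The proliferation marker Mki67 was 2.82 higher there, and the median gene of S phase and mitosis 1.99 higher. Among the members Cdkn2c was 1.49 higher, Ccnd1 1.08, Cdk6 0.56, Cdkn2d 0.55 and Cdk4 0.36. Ccnd2 was 0.48 lower. Rb1, Ccnd3 and Cdkn1b moved by 0.11, 0.09 and -0.09. Between Rac2-/- arrays 3 and 4 the members differed less, by -0.12 in Cdkn1b to 0.20 in Cdk6 (array 4 minus array 3). Whether arrays 3 and 4 come from separate mice is not stated. In WT array 5 against WT arrays 3 and 4 the 9 members moved by -0.20 to 0.28. Thus the array with the highest cell cycle transcripts held the lowest Ccnd2 value of all 10. The part of this array's cell cycle transcripts in the member values was not tested. In such bulk RNA, fewer dividing cells and less RNA per cell cannot be told apart.

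**Figure D4:**
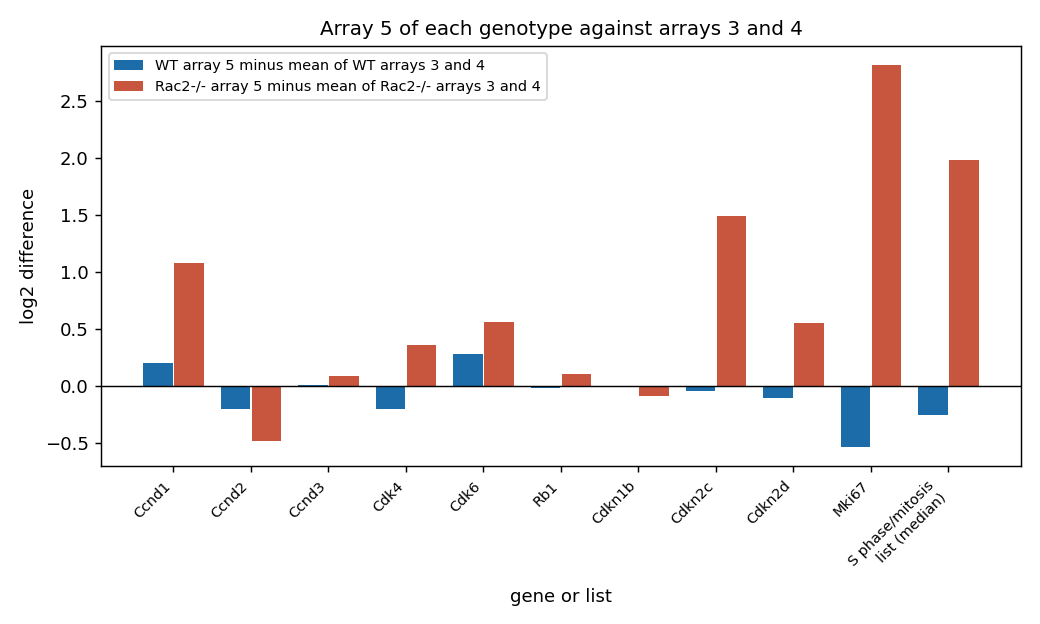
Log2 difference (y axis) between array 5 and the mean of arrays 3 and 4 of the same genotype, for each measured gene, Mki67 and the median gene of the S phase and mitosis list (x axis). Blue bars are WT and red bars Rac2-/-, each 1 array against 2. Cdkn2c and Ccnd1 are raised by 1.49 and 1.08 in the Rac2-/- array, and Ccnd2 is lowered by 0.48.

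Genes around the members were read in lists. Their counts stand against 1.9% of all features called and 10.4% at an unadjusted p under 0.05. The G1 and pRB pathway list (other inhibitors, E cyclins, CDK2, pocket proteins, E2Fs, and the Myc and Mxd factors) had 43 of 44 genes tested and a median difference of -0.08, against 0.00 over all features. Of these 43, 1 was called, Mxd4, a Max partner that opposes Myc, which was higher in Rac2-/- (difference -0.71, adjusted p = 0.0108), and 4 had an unadjusted p under 0.05. Mxd1, of the same family, was on the opposite side with 0.62 (adjusted p = 0.0807). Without Rac2-/- array 5 the Mxd1 difference was 0.47 and passed (adjusted p = 0.0266), as it did with the term for the sets (0.0282). Tfdp2, a dimer partner of E2F proteins, differed by -0.68 (adjusted p = 0.386, and 0.0493 with the block), and by -0.42 without Rac2-/- array 5. Myc differed by -0.38 (adjusted p = 0.88) and E2f1, which pRB restrains, by -0.15 (adjusted p = 0.937). The INK4 genes Cdkn2a and Cdkn2b differed by 0.03 and -0.03. Among 38 other cyclins and CDKs tested, limma called 0, with 7 at an unadjusted p under 0.05 and a median of -0.00453. The smallest adjusted p values were those of Ccnj (0.61, adjusted p = 0.0588), Ccni (-0.29, 0.0605) and Cdk14 (0.50, 0.192). With the block, 3 of the 38 passed, against 6.35% of all features. Ccnj (adjusted p = 0.0498) and Cdk18 (0.65, 0.021) were higher in WT and Ccni (0.0297) higher in Rac2-/-. With the term for the sets Ccnj and Ccni had adjusted p values of 0.0205 and 0.01.

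The downstream genes of S phase and mitosis, 33 tested, had a median difference of -0.49, with 28 of 33 means higher in Rac2-/-. None was called in limma and 2 had an unadjusted p under 0.05. Without Rac2-/- array 5 the median was -0.08 and 21 of 33 means were higher in Rac2-/-. Within arrays 1 and 2 the median was -0.14. Over all features tested, 50.1% of means were higher in WT. With all 10 arrays, lower Ccnd1 and Ccnd2 means thus stood beside S phase transcripts of which most had higher means in Rac2-/- cells. The size of that lean rested largely on Rac2-/- array 5. Mki67 averaged 6.82 ± 0.68 in WT and 8.02 ± 1.43 in Rac2-/- (SD, n = 5, adjusted p = 0.615 in limma). Its difference was -1.21, and -0.59 without Rac2-/- array 5 (adjusted p = 0.751). The smallest adjusted p values of the list belonged to Tk1, thymidine kinase, at 0.289, Rrm1, a subunit of ribonucleotide reductase, at 0.466, and the checkpoint kinase Bub1b at 0.563. Their differences of -0.72, -0.69 and -0.82 were -0.45, -0.37 and -0.39 without that array. With the term for the sets as well, Tk1 and Rrm1 passed (adjusted p = 0.017 and 0.0216).

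Because Cdkn1a could not be read, other targets of p53 were examined, of which 23 were tested. Sesn1, a stress-induced sestrin, was higher in Rac2-/- (11.02 ± 0.05 in WT and 11.52 ± 0.04 in Rac2-/-, difference -0.50, adjusted p = 0.00361). Aen, an apoptosis-enhancing nuclease, was higher in WT (difference 0.36, adjusted p = 0.045), and was called in 0 of the 10 fits that left out a single array (adjusted p up to 0.136). Plk2 had the next smallest adjusted p (difference 1.32, adjusted p = 0.0808, and 0.0112 with the block). The list's median was 0.02, with 6 genes at an unadjusted p under 0.05. Its called genes lay on opposite sides.

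Upstream, 37 genes that carry MCSF and mitogen signals to D-type cyclins were tested, and limma called 0, with 3 at an unadjusted p under 0.05 and a median of -0.05. Csf1r, the MCSF receptor, was at 12.66 in WT and 12.78 in Rac2-/- (adjusted p = 0.78). Jun, an AP-1 subunit, was higher in WT by 0.65 (adjusted p = 0.0768, and 0.0132 with the block). Creb1 and Ets2, both transcription factors, differed by -0.29 and -0.49 (adjusted p = 0.14 and 0.315, and 0.0355 and 0.0328 with the block).

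**Figure D5:**
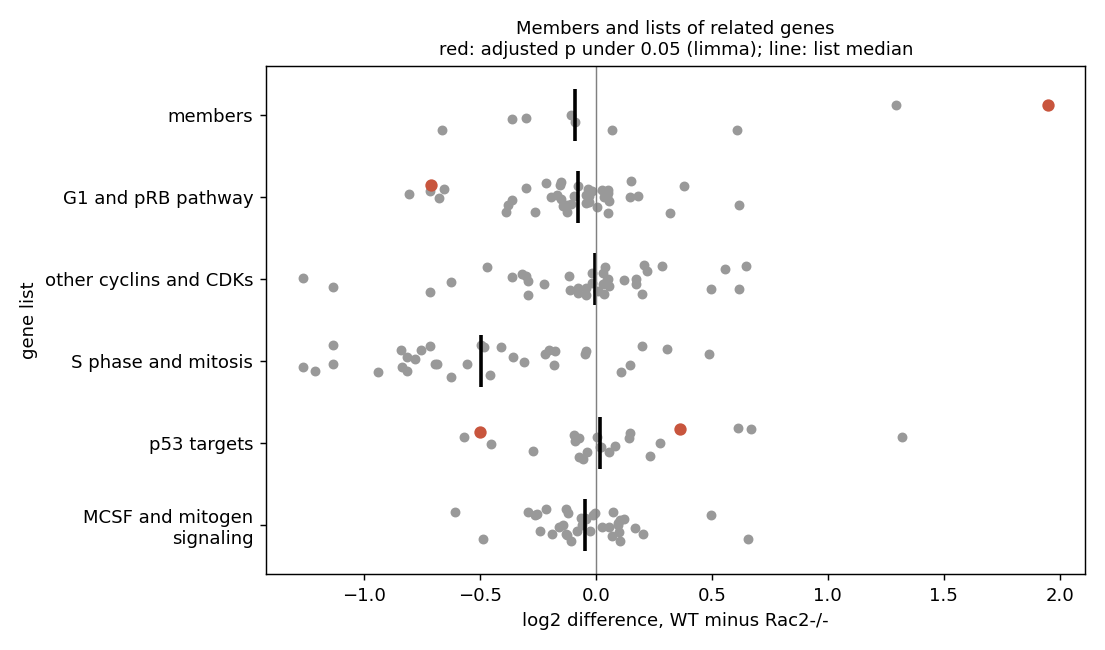
Log2 difference between the genotypes (x axis, WT minus Rac2-/-) of the 9 measured members and of the tested genes of 5 lists (y axis), with 1 point per gene. Red points have an adjusted p under 0.05 in limma and lines are list medians. Ccnd2 lies furthest right, and the S phase and mitosis genes have a median of -0.49.

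Marker genes gave the following context. The 10 macrophage markers tested had array medians of 12.09 to 12.66, with 0 called in limma and 3 at an unadjusted p under 0.05. Neutrophil markers (11 tested, 0 called, 0 at an unadjusted p under 0.05) had array medians of 6.46 to 8.82, and marrow progenitor markers (8 tested, 0 called, 2) of 5.72 to 6.26. Mast cell and basophil markers, 5 tested, had array medians of 4.62 to 5.30 in Rac2-/- and 5.03 to 6.05 in WT, with a median difference of 0.84 in the direction of Ccnd2. Of these 5, Hdc was called (0.49, adjusted p = 0.0185) and 4 had an unadjusted p under 0.05, Hdc, Cpa3, Mcpt8 and Prss34, all with higher means in WT. Tpsb2 lay on the opposite side with -0.10 (adjusted p = 0.791 in limma). The defining genes Ms4a2 and Fcer1a were below the filter. Fibroblast markers (9 tested, 0 called, 4 at an unadjusted p under 0.05) and T and B cell markers (7, 0, 1) had array medians of 6.04 to 6.88 and 5.62 to 6.02. Median differences were also above 0 for neutrophil (0.28), marrow progenitor (0.19) and fibroblast markers (0.20). They were -0.02 for macrophage markers and -0.05 for T and B cell markers. The part of these cells in the member values was not tested.

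Over the 10 arrays, the genes whose profile was most like that of Ccnd2, among 16881 genes, were Rac2 (Pearson r = 0.989), Apobec3 (0.988), Chic1 (0.988), Pcsk7 (0.982) and Misp (0.980). These correlations are descriptions over arrays of 2 genotypes. After the genotype means were removed, r was 0.39 for Rac2, 0.56 for Apobec3, 0.36 for Chic1, 0.75 for Pcsk7 and 0.47 for Misp.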

How the data were processed

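RNA of 10 BMDM samples was hybridised to Affymetrix mouse whole-transcript arrays. The authors deposited log2 values from RMA (background correction, quantile normalization between arrays, summary of probes per feature). The log base was taken from their range, 1.69 to 13.7. Platform annotation gave 21640 features a single symbol, 1321 several and 11799 none. The methods name a filter, ComBat for a batch effect and then limma. Here 27031 features, the number the filter left and those highest in their fourth-highest array, were tested with limma 3.58.1 in R 4.3.3 (lmFit, eBayes, Benjamini-Hochberg). No block was used. ComBat was left out of this fit, because the labels do not name its groups, and was tried only as an alternative. Same-numbered arrays deviated together from their group means (r of 0.493 to 0.716), as did other numbers of the same set (0.476 to 0.724). These ranges are alike, but the sets enter both, so they do not decide whether same-numbered arrays are pairs. The labels do not state pairing either, so the block and the same-numbered pairs rest on an assumption. No pair of arrays was identical. Genes named were all members, Rac2, Mki67, and in each list those called and the 3 smallest adjusted p, with the 5 genes most like a called member. Further genes of the lists (Myc, E2f1, Cdkn2a, Cdkn2b, Csf1r, Hdc, Cpa3, Mcpt8, Prss34, Tpsb2, Ms4a2, Fcer1a, Cdk18) were named after their values were seen. Members and lists were chosen with earlier results of these data known. Alternatives were no filter, other variance models, the block, a term for the sets or ComBat's parametric model on them, each set alone, other scalings, the mean of a gene's features and leaving out each array. Promoter sequences are from RefSeq, GRCm38.p6.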

Additional observations from a re-analysis of the deposited data

Results flagged for a closer look

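In 7 of 52 groups of 5 arrays, the highest or lowest array lay far from the others by Dixon's test. Chance does this in about 1 of 20 independent groups. These groups share arrays, and some genes were named for their small p, so no excess over chance is read. Of the 7 cases, 6 concerned Rac2-/- array 5. Cdkn2c was at 9.40 there and at 7.80 to 7.92 in the other Rac2-/- arrays. Mki67 was at 10.5 against 6.85 to 7.82, Tk1 at 8.73 against 7.26 to 7.64, Rrm1 at 10.8 against 9.00 to 9.39 and Bub1b at 9.41 against 7.10 to 7.62. Mxd1, an antagonist of Myc, was lower there, at 8.34 against 8.98 to 9.22. The remaining case was Sesn1 in WT array 1, at 11.1 against 10.995 to 11.007 in the other WT arrays, a group whose whole spread was small.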

How the results depend on the processing

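Ccnd2 was called higher in WT in every alternative except arrays 1 and 2 alone (1.95, adjusted p = 0.107). The replicate block gave 1716 called features and 4 members, 2 genes of the G1 and pRB pathway, 3 other cyclins and CDKs, 7 p53 targets and 3 MCSF and mitogen signaling genes. In the same order the counts were 1811, 3, 2, 5, 6 and 1 with array weights, 2524, 5, 3, 6, 7 and 5 with a term for the sets, and 4386, 5, 5, 12, 9 and 7 after ComBat on the sets. The term without Rac2-/- array 5, chosen after seeing the data, gave 2547, 6, 6, 7, 7 and 7, and 6 genes of S phase and mitosis, 3 in each direction. Arrays 1 and 2 alone gave 2 features, 0 members, 0 pathway genes and 0 p53 targets, and arrays 3 to 5 alone 1487, 2, 2, 3 and 4 in the first 5 of these. Quantile normalization gave 536 features, 2 members, 2 other cyclins and CDKs, 1 p53 target and 1 MCSF gene. No filter, the trend and median centring each left 1 p53 target.

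Leaving out each array in turn gave 245 to 625 features, 1 to 3 members, 1 to 3 pathway genes, 0 to 2 other cyclins and CDKs, 1 to 2 p53 targets and 3 to 4 gene pairs. The interaction gave 0 to 8 features, with 8 without Rac2-/- array 2. Members rose to 3 without Rac2-/- array 5, where Ccnd1 and Cdk6 were added. Aen lost its call in all 10 of these fits (adjusted p up to 0.136). Ccnd2 minus Ccnd1 ranged from 0.33 to 0.78 and passed when WT array 5 (0.78) or Rac2-/- array 1 (0.78) was dropped. The paired sign-flip test (replicate block) cannot go below 0.0625 and arrays 3 to 5 alone cannot go below 0.1, so that 0 gene pairs pass in either. Their values were 2.06 and 2.02 for Ccnd2 minus Ccnd3, 1.40 and 1.32 for Ccnd1 minus Ccnd3 and 0.70 and 0.67 for Cdk6 minus Cdk4.

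Signs turned for 3 uncalled members. With each array left out, Ccnd3 ranged from -0.24 to 0.048 (positive when WT array 2 was dropped), Cdk4 from -0.16 to 0.016 (positive when Rac2-/- array 5 was dropped) and Cdkn2d from -0.090 to 0.19, being negative when WT array 1 or 2 or Rac2-/- array 3 or 4 was dropped. Cdkn2d was at -0.092 with array weights and at -0.15 in arrays 3 to 5. The cause of these changes was not tested. The precision is limited by the number of arrays, 5 a group.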
